A study of Mus musculus with 4 samples.

Results

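In ATAC-seq of differentiating mouse embryonic stem cells (mESCs), 5011 distal regions had an accessibility peak in exactly 1 of the 2 day 4 (d4) libraries and in no other library. They were chosen by their peak calls. Merging peaks across the 4 lists wherever they shared 1 bp or more gave 40910 regions, of which 22746 were distal, that is, over 1000 bp from any annotated transcript start. The 5011 regions made up 22.0% of the distal regions, 2883 of them called in d4 replicate 1 and 2128 in d4 replicate 2. They are called single d4 regions here. They were compared with the 3566 distal regions called in both d4 libraries and in no d2 library (gained regions) and with the 6498 distal regions called in exactly 1 d2 library, 28.6% of the distal regions (single d2 regions). Among the remainder, 3871 were called in both d2 libraries only, 1630 in all 4 libraries, and 2170 in other combinations.

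The cells were wild-type ES-E14TG2a, a feeder-independent mESC line, grown as embryoid bodies in serum-free medium with ascorbic acid and monothioglycerol, and the labels call the cells of both days mouse embryonic stem cells. ATAC-seq uses a transposase that inserts sequencing adapters into open DNA. The d2 libraries were collected before reaggregation with Activin A, BMP4 and VEGF, and the d4 libraries after it, with 2 libraries per time point from independent differentiations. The cultures were not sorted and came from 1 line, so fewer cells with an open site and a less open site in every cell cannot be told apart. At the transcript starts of marker genes, Pou5f1, a pluripotency factor, had peaks in both d2 and in neither d4 library, as had Zfp42, while Nanog had one in d2 replicate 2 only. Of the mesoderm genes, T had peaks in both d2 libraries and d4 replicate 2, and Mesp1 in d2 replicate 2 only. Kdr, the VEGF receptor of endothelial precursors, had a peak in all 4 libraries. Cdh5 and Pecam1, which encode endothelial junction proteins, had one in d4 replicate 1 only, and Tek, the angiopoietin receptor, in d4 replicate 2 only.

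Distal accessible regions include enhancers, where transcription factors bind short sequence motifs and displace nucleosomes. In the early endothelial and blood lineages, GATA factors, ETS factors and the bHLH factor TAL1 are known to act at such sites. TEAD factors carry the output of the Hippo pathway, and AP-1 is a dimer of FOS and JUN proteins. POU5F1 binds the octamer motif of pluripotent cells, SNAI and ZEB repressors bind the CAGGTG E-box, and CTCF marks insulators.

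The sequences below are shown because the GATA motif was, of the motifs searched, the one whose share exceeded that of single d2 regions by the most. They are the GATA-holding single d4 regions with the highest fold enrichment in each d4 library, with 101 bases of the mm10 plus strand, 5′ to 3′, centred on the motif. Each name gives the nearest gene, the library and the mm10 position, and the capitals mark the GATA motif AGATAAG or its reverse complement CTTATCT.
Gm45463, d4 replicate 1, chr8:93014529-93014629: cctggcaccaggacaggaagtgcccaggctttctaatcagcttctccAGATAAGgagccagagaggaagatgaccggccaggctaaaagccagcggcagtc
1700084J12Rik, d4 replicate 1, chr15:33443557-33443657: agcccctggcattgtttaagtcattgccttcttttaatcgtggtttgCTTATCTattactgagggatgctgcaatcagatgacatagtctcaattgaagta
Gm43156, d4 replicate 1, chr5:147761401-147761501: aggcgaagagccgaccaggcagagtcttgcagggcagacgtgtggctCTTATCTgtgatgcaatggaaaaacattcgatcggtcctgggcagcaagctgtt
Gm26264, d4 replicate 1, chr6:81588980-81589080: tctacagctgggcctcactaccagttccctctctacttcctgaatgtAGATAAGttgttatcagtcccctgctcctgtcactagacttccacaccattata
Spats2l, d4 replicate 2, chr1:57715782-57715882: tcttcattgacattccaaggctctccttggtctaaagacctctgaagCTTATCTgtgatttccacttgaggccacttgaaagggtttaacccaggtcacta
Gm13855, d4 replicate 2, chr6:34188187-34188287: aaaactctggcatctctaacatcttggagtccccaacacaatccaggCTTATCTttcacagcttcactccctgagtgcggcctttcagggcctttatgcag
Lpxn, d4 replicate 2, chr19:12805837-12805937: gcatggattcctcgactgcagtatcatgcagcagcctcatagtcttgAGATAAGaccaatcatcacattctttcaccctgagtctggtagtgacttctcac
Crybg1, d4 replicate 2, chr10:44062598-44062698: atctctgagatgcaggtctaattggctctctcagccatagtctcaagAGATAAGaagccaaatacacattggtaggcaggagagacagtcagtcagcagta

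The region nearest to Gm45463 had a fold enrichment (summit pileup plus 1 over local background plus 1, as the peak caller wrote it) of 12.5 and a summit pileup of 27 overlapping reads or fragments. It lay in an intron, 2.82 kb from the nearest start, and its GATA motif was centred 34 bp from the summit. The region nearest to Spats2l had a fold enrichment of 11.5, was intergenic, and its motif was centred 1 bp from the summit. The third region of d4 replicate 1, with a fold enrichment of 10.6 and a pileup of 24, was intergenic, and its nearest protein-coding gene was Flt1, which encodes a VEGF receptor, at 35.3 kb. The motif near Lpxn, the gene of the focal adhesion protein leupaxin, was centred 2 bp from the summit.

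The next windows show members with another motif in capitals, TEAD (ACATTCC), AP-1 (TGAGTCA or its reverse complement) or ETS (AGGAAGT or CGGAAGT), again from the members with the highest fold enrichment. The Spats2l and Gm45463 windows belong to regions printed above, which held both motifs.
TEAD, Spats2l, d4 replicate 2, chr1:57715744-57715844: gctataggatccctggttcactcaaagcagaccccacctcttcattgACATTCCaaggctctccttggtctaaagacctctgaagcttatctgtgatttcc
AP-1, Gm10115, d4 replicate 2, chr2:7002058-7002158: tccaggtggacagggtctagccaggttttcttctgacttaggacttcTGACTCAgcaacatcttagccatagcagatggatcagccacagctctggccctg
ETS, Gm45463, d4 replicate 1, chr8:93014496-93014596: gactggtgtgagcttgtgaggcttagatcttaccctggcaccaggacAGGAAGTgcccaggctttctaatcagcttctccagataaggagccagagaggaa

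The last windows show strong members without any of the 20 motifs searched, centred on the summit. Near matches to a motif were not counted and can be present in these windows. The first of these, 3.96 kb from the start of Gm44243, had a fold enrichment of 12.8 and a pileup of 30. The third was intronic, 17.0 kb from the start of Stab2, a scavenger receptor of sinusoidal endothelium, with a fold enrichment of 11.6.
Gm44243, d4 replicate 1, chr6:129544330-129544430: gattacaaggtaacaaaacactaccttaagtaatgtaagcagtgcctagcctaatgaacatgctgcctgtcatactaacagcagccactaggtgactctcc
Gm23159, d4 replicate 1, chr4:77519341-77519441: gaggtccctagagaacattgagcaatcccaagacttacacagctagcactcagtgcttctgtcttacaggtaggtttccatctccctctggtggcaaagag
Stab2, d4 replicate 2, chr10:87025025-87025125: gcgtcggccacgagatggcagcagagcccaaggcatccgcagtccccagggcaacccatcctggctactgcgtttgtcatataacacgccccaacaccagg
Gm31415, d4 replicate 2, chr3:49093981-49094081: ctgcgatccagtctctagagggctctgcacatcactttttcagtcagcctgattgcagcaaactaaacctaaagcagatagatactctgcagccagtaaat

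By the values that chose them, single d4 regions were weak peaks. The summit pileup ranged from 7 to 34 with a median of 11 in d4 replicate 1 and from 7 to 31 with a median of 11 in d4 replicate 2. Gained regions had medians of 16 and 15 in the same libraries. The median fold enrichment was 6.27 (3.56 to 14.2) and 6.09 (3.29 to 13.05) in the members of the 2 libraries, against 7.94 and 7.67 in gained regions. The median width was 158 bp for members and 282 bp for gained regions. A gained region spans merged peaks of both d4 libraries and a member those of 1, so these widths do not compare single peaks. A pileup of at most 10 was found in 2118 members (42.3%), and a pileup over 20 in 74. These are descriptions of the selection and carry no test.

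Among distal regions without a d2 peak, the share of d4 replicate 1 regions also called in d4 replicate 2 was 15.8% at a pileup of 7 to 8, 40.6% at 11 to 12, 75.5% at 16 to 20 and 99.5% at 31 or more. For d4 replicate 2 the shares were 22.9%, 50.7%, 83.0% and 99.4%. The share was higher in each stronger bin in both libraries, and 1 member in each library had a pileup of 31 or more. These shares come from the calls that chose the members and are a description too. A nearby call in the other library was uncommon. Of the d4 replicate 1 members, 112 (3.88%) had a d4 replicate 2 peak within 1000 bp, and of the d4 replicate 2 members, 102 (4.79%) had a d4 replicate 1 peak there. The genome-wide background coverage solved from the lists was 0.755 and 0.744 for the d4 lists, against 0.568 and 0.483 for those of d2. Whether the lower d2 values set which regions had no d2 call was not tested.

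**Figure D1:**
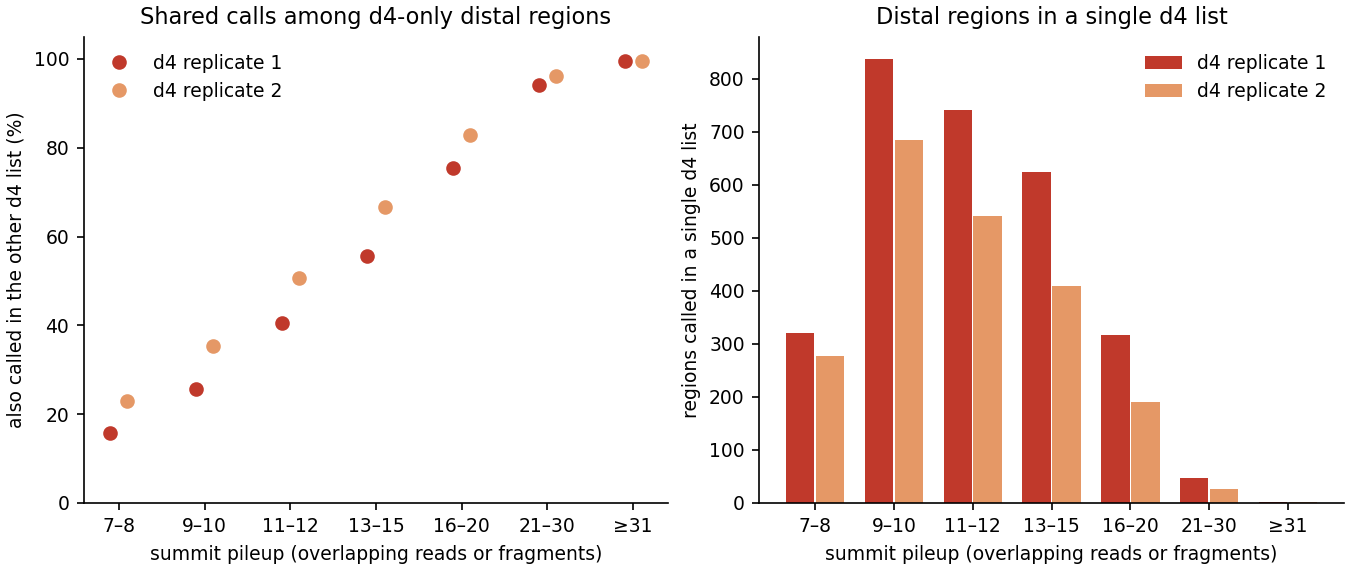
Left, share of distal regions without a d2 peak that were also called in the other d4 library, by summit pileup. Right, number of single d4 distal regions in each library by summit pileup. The left shares lie between 15.8% and 22.9% in the weakest bin and above 99% in the strongest, and most members have a pileup of 15 or less.

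The members just inside the rule lay 1001 bp from a start of Gm49313 and 1003 bp from a start of Ppp1r9b, with fold enrichments of 5.23 and 5.23, and another lay 1003 bp from a start with 7.87. Just outside it, the nearest region called in d4 replicate 1 alone lay 1000 bp from a start, with a fold enrichment of 4.07. The next lay 999 bp from Pcsk1, with a fold enrichment of 9.71, and 998 bp from Dock10, with 7.37. In all, 978 further regions called in a single d4 library were within 1000 bp of a start.

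Of the 5011 single d4 regions, 683 held the GATA motif (AGATAAG on either strand) within 100 bp of the summit, or 13.6% (95% Wilson interval 12.7 to 14.6). The share was 13.9% in the members of d4 replicate 1 and 13.3% in those of d4 replicate 2, a difference of 0.66 percentage points (95% Newcombe interval -1.28 to 2.56). Over all 22746 distal regions the share was 7.79%. Single d2 regions held the motif in 1.84% and 1.36% of the 2 libraries' regions, or 1.66% together. The single d4 share was 11.97 points higher (95% interval 10.98 to 12.99), and both d4 libraries lay above both d2 libraries. Gained regions held it in 22.2%, and the difference of the single d4 share from it was -8.58 points (interval -10.3 to -6.93). Most members with the motif had 1 copy (642), 38 had 2, and 3 had more. Sequence played no part in the choice of the regions. All intervals cover counting error only, are not adjusted for the number of comparisons, and regions of 1 genome are not replicates of a time point.

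The motif was more common at the summits than in their surroundings. In windows of the same length centred 1000 bp to either side of the same summits, the mean share was 2.98%, so the summit windows of members were 10.6 points higher (95% interval 9.65 to 11.6). Per 100 regions, the central 50 bp held 4.41 motifs in d4 replicate 1 members, 4.09 in d4 replicate 2 members, 8.10 in gained regions and 0.32 in single d2 regions. In the bins 200 bp to either side, the members of d4 replicate 1 held 1.18 and 0.69, those of d4 replicate 2 held 1.13 and 0.89, and gained regions 1.26 and 1.09. In single d2 regions the summit windows held fewer GATA motifs than their flanks (-1.02 points, interval -1.43 to -0.60).

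**Figure D2:**
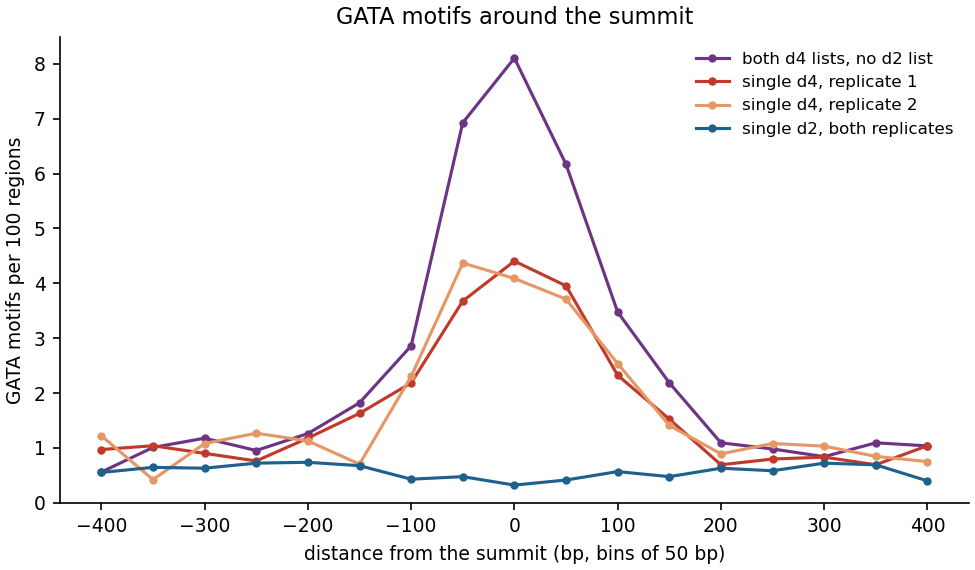
GATA motifs per 100 regions in 50 bp bins by distance from the summit, for single d4 regions of each library, gained regions and single d2 regions. The single d4 curves of both libraries peak within 50 bp of the summit, at 4.41 and 4.37 motifs per 100 regions, below the gained curve and above the single d2 curve.

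The GATA motif was present in weak members too. At a summit pileup of 8 or less, 10.7% of 596 single d4 regions held it against 1.95% of 1590 single d2 regions, a difference of 8.79 points (95% interval 6.41 to 11.6). At 16 to 20 the shares were 16.6% and 1.00%, 15.6 points apart (12.3 to 19.1). The interval lay above 0 in each of the 6 pileup bins. Pileups were not scaled between days, and background coverage was 0.755 and 0.744 at d4 against 0.568 and 0.483 at d2. A bin therefore does not hold peaks of the same relative strength on both days. Between members and gained regions of equal pileup in the same library, members had the lower share in each of 12 bins, with an interval below 0 in 8 of them. In the weakest bin of d4 replicate 1, the shares were 10.9% and 13.3% (difference -2.40 points, interval -13.6 to 5.11), which the 60 gained regions there cannot tell apart.

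**Figure D3:**
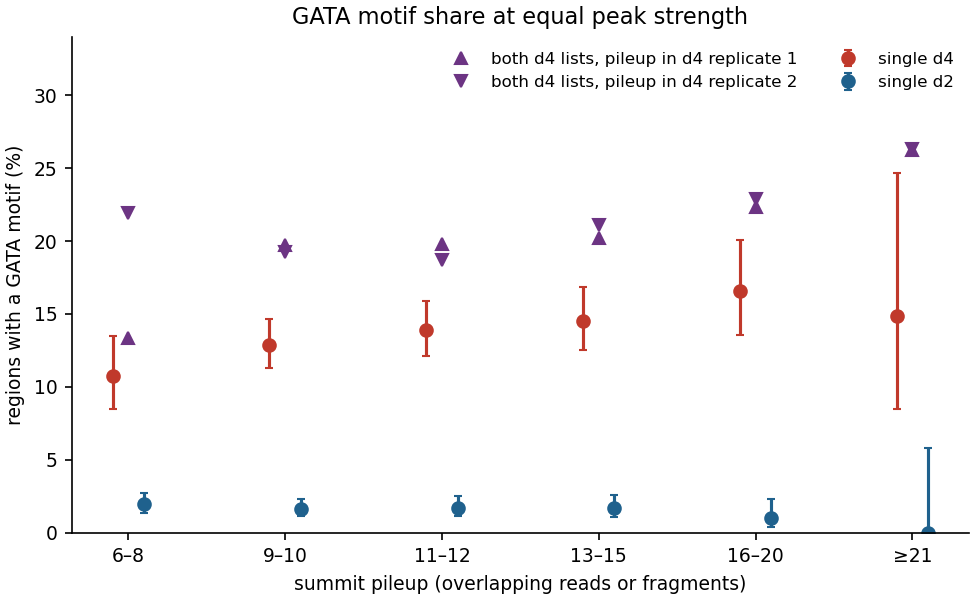
Share of distal regions with a GATA motif within 100 bp of the summit, by summit pileup, for single d4 and single d2 regions (95% Wilson intervals) and for gained regions by their pileup in each d4 library (no intervals drawn). Single d4 shares run from 10.7% to 16.6% and single d2 shares stay at or below 1.95% in every bin. Pileups were not scaled between days, whose background coverage differed.

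The difference from single d2 regions was also measured within subsets of similar sequence and position, chosen after the data were seen. It was 13.7 points among windows under 45% GC, 12.4 points at 45 to 55% GC and 7.57 points over 55% GC. It was 11.7 points in introns, 12.2 points between genes, 16.0 points within 10 kb of a gained region and 11.7 points farther away. It was 12.2 points in windows free of marked repeats and 11.8 points in the others. Each interval lay above 0. A search within 50 bp of the summit gave 7.67 points, and a looser motif (AGATAA or TGATAA) gave 29.7 points.

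Other motifs were also more common in single d4 than in single d2 regions. The composite of GATA with part of an E-box, bound by TAL1 complexes, lay in 2.91% of members against 0.43% (difference 2.48 points, 95% interval 2.01 to 3.00), and it shares letters with the GATA motif. ETS was found in 11.1% against 6.68% (4.46 points, 3.40 to 5.53). AP-1 was found in 9.28% against 4.72% (4.56 points, 3.61 to 5.52), and TEAD in 7.74% against 2.85% (4.90 points, 4.07 to 5.76). The forkhead motif (TGTTTAC) lay in 6.07% against 2.57%, the RUNX motif (TGTGGTT) in 7.52% against 3.92%, the MEIS motif (GCTGTCA) in 6.84% against 3.63% and the CAGATG E-box in 21.6% against 16.1%. Each of these was higher in each d4 library than in either d2 library. Over all distal regions, ETS lay in 8.74%, AP-1 in 6.56%, TEAD in 5.34%, forkhead in 4.41%, RUNX in 5.45%, MEIS in 5.15% and CAGATG in 17.9%. The T-box motif (AGGTGTGA), TCF/LEF (ATCAAAG) and MEF2 were higher by 0.73, 1.39 and 0.34 points, the last with an interval of 0.02 to 0.69 that held 0 in the members of d4 replicate 1 alone (-0.08 to 0.73). MEF2 was rarer at the members' summits (0.96%) than in their flanks (3.09%), by -2.14 points (-2.57 to -1.70). Gained and single d2 regions were also below their flanks for MEF2 (-2.01 and -2.20 points).

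Other motifs were rarer in single d4 regions. CAGGTG, the SNAI/ZEB E-box, lay in 8.71% and 9.12% of the members of the 2 d4 libraries, against 26.0% and 26.9% of the single d2 regions of the 2 d2 libraries. The difference was -17.5 points (95% interval -18.8 to -16.1), and the members' own flanks held the motif in 12.9%. The octamer (ATTTGCAT) lay in 0.80% against 3.23%, KLF (CCACACCC) in 1.80% against 2.54% and CTCF in 3.91% against 6.73%. The CTCF interval lay below 0 in each pileup bin up to 15, but not in the stronger bins. At 16 to 20 the CTCF shares were 5.33% and 4.61% (0.72 points, -2.04 to 3.48). At 21 or more they were 8.11% and 4.84% (3.27 points, -6.23 to 12.3). For KLF the interval held 0 in the members of d4 replicate 2 alone (-0.28 points, -0.97 to 0.52). Over all distal regions these shares were 18.1% for CAGGTG, 2.48% for the octamer, 2.20% for KLF and 5.40% for CTCF. For SOX (ACAATGG), homeobox (TAATTA), ESRRB (TCAAGGTCA) and the CAGCTG E-box the interval held 0. Of the 20 motifs, 12 were higher in single d4 than in single d2 regions, 4 were lower and 4 had an interval that held 0.

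Against gained regions, 12 of the 20 motifs had an interval that held 0, among them ETS (11.1% against 12.5%) and AP-1 (9.28% against 9.98%). TEAD differed by -3.03 points (95% interval -4.30 to -1.78), forkhead by -1.84, RUNX by -1.42, the TAL1 composite by -2.44 and the CAGCTG E-box by -2.25. CTCF and CAGGTG were higher in members. CTCF lay in 3.91% of members against 1.09% of gained regions (2.82 points, 2.18 to 3.46) and in 0.14% of the members' flanks, and CAGGTG in 8.88% against 6.59%. Between the members of the 2 d4 libraries, 17 of the 20 intervals held 0. ETS and KLF were lower in the members of d4 replicate 1 (-2.13 and -0.80 points), and TEAD was higher there (1.53 points).

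**Figure D4:**
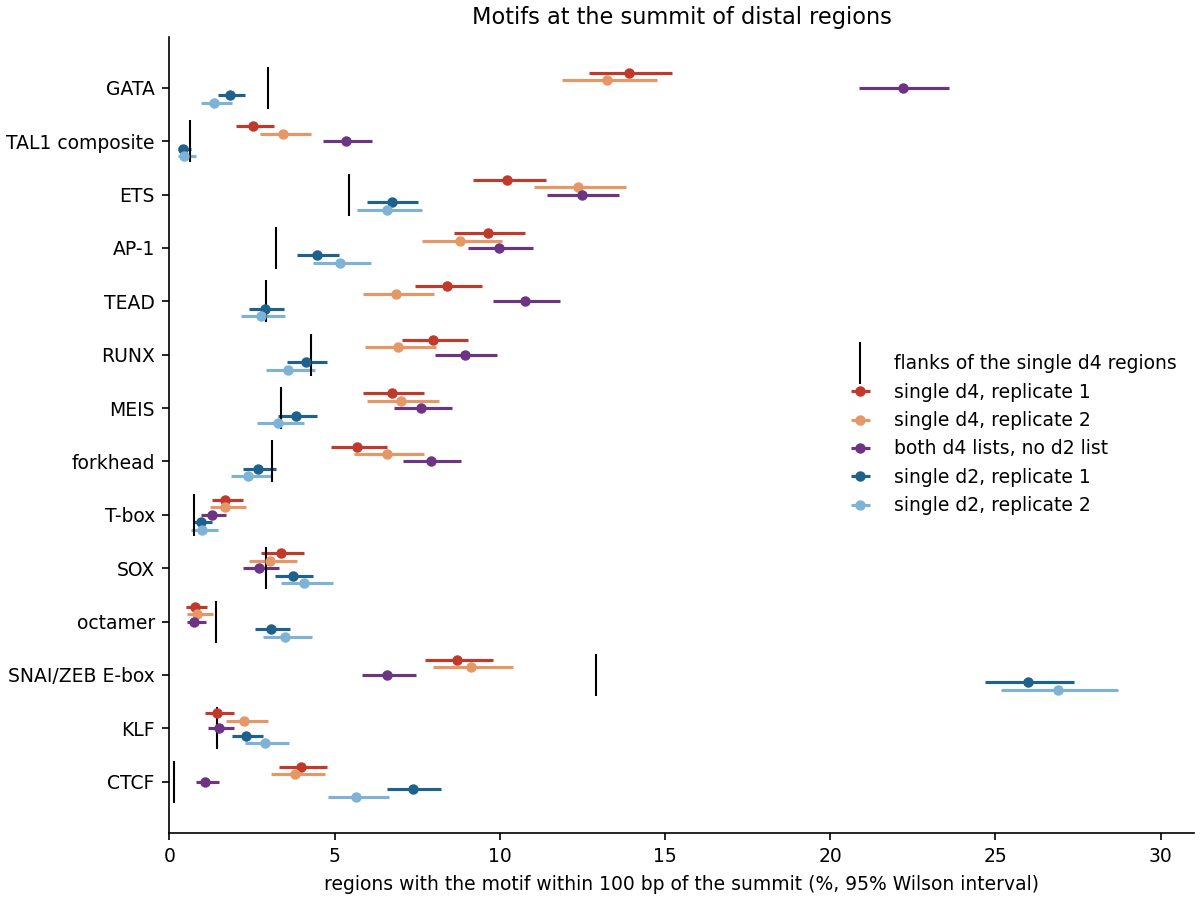
Share of distal regions with each motif within 100 bp of the summit, for single d4 and single d2 regions of each library and gained regions, with 95% Wilson intervals, and the mean share in the flanks of single d4 regions (black ticks). GATA sits at 13.3% to 13.9% in single d4 and at 1.36% to 1.84% in single d2 regions, while the SNAI/ZEB E-box sits at 8.71% to 9.12% and 26.0% to 26.9%. Some motifs named in the text are not drawn.

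Taking GATA, ETS, AP-1, TEAD and forkhead as a group, 2023 members (40.4%) held at least 1, with 40.2% in d4 replicate 1 and 40.6% in d4 replicate 2, against 50.6% of gained and 17.2% of single d2 regions. None of the 20 motifs lay in 22.6% of members, 18.8% of gained and 29.4% of single d2 regions. Members with a GATA motif held ETS in 9.81% and members without it in 11.3%, a difference whose interval held 0. TEAD was found in 5.86% of members with a GATA motif and in 8.04% of the others (-2.18 points, interval -3.93 to -0.02).

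In base composition the single d4 regions were close to gained regions. The mean GC content within 100 bp of the summit was 50.3% ± 5.60 (SD over 5011 regions) in members and 50.8% in gained regions, a difference of -0.52 points (95% interval -0.74 to -0.29). It was 50.3% in the members of each d4 library, against 52.5% and 55.4% in the single d2 regions of the 2 d2 libraries. CpG dinucleotides numbered 1.26 per 100 bp in members, 1.16 in gained and 2.11 in single d2 regions. Bases marked as repeats made up 9.20% of the members' windows, and 2.02% of the windows were over 50% repeat.

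By annotation, 46.6% of single d4 regions were intronic (95% Wilson interval 45.3 to 48.0) and 48.5% intergenic. The intronic share was 46.5% and 46.8% in the members of the 2 d4 libraries, 47.8% in gained regions and 41.8% in single d2 regions. Exons, outside UTRs, took 3.23% of members against 7.51% of single d2 regions. The median distance to the nearest start was 14.8 kb, with 256 members over 100 kb away. A gained region lay within 50 kb of 24.2% of members (24.4% and 23.8% in the 2 d4 libraries) and of 17.5% of single d2 regions. The reverse held for regions called in both d2 libraries only, which lay within 50 kb of 20.1% of members and 23.5% of single d2 regions.

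Genes were given the distal regions to which their start was nearest, which does not show regulation. Members were assigned to 4249 of the 13676 genes with a distal region (31.1%), and 3633 of these genes had 1 member. Because only 47.2% of the members were nearest to a protein-coding gene, the lists below are also given with the nearest protein-coding gene, for which the background was 38.8% of 8670 genes.

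Endothelial genes had a member at 12 of 41 list genes with a distal region (29.3%), and at 29 of 49 (59.2%) with protein-coding genes. Of the distal regions assigned to endothelial genes, 23.7% were members, and 28.7% with protein-coding genes, against 22.0% of all distal regions. Tek led with 4 members, 3 of d4 replicate 1 and 1 of d4 replicate 2, and no gained region among its 5 distal regions. In d4 replicate 1 the Tek members lay 23.9 kb and 15.8 kb upstream of the first start, with fold enrichments of 8.24 and 4.36, and 8.59 kb downstream, with 5.73. The d4 replicate 2 member lay 6.63 kb downstream of it, with 5.21. The fifth Tek region, 13.4 kb downstream, was called in both d2 libraries and in neither d4 library. Adgrf5, an adhesion receptor of endothelium, had 3 members and 1 gained region, and its strongest member (fold enrichment 9.23, d4 replicate 1) held GATA and forkhead motifs. Tspan18, a tetraspanin gene, had 3 members and 2 gained regions. The strongest endothelial member of d4 replicate 2 was intronic, 19.2 kb from the nearest annotated start of Erg, an ETS factor of endothelium (fold enrichment 6.73). A gained region lay 1.18 kb from it.

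At the endothelial genes Flt1 and Eng, the latter encoding the TGF-beta co-receptor endoglin, 1 intronic member each was called in d4 replicate 1, with fold enrichments of 4.83 and 5.62. Kdr, Cdh5, Pecam1 and Notch1 had no member by the nearest gene. By the nearest protein-coding gene, Kdr had 3, of which those 48.2 kb and 23.7 kb from its start held a GATA motif and were called in d4 replicate 2, with fold enrichments of 5.72 and 6.24. Cdh5 had 4, but these lay 103 to 637 kb from its start. Flt1 and Eng had 2 each. The additional Flt1 member is the d4 replicate 1 region printed above, with a fold enrichment of 10.6. The additional Eng member was intronic, 10.9 kb from the Eng start, and was called in d4 replicate 2 with a fold enrichment of 7.85. It lay within the intronic Eng region that the paper reported as a putative regulatory element, with increased accessibility at d4. The paper also reported reduced Eng expression when the histone demethylase LSD1 was directed to that element. Pecam1 and Notch1 had no member by either assignment.

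Blood genes had a member at 4 of 12 list genes (33.3%, and 7 of 14 or 50.0% with protein-coding genes, against the 31.1% and 38.8% of all such genes), among them Spi1, the myeloid factor PU.1, with 2 members and no other distal region, and Runx1, with 1. Cardiac and cardiopharyngeal genes had one at 10 of 20 (50.0%), and at 15 of 26 (57.7%) with protein-coding genes. Mef2c, Tcf21 and Isl1, which encode transcription factors of heart and pharyngeal mesoderm, had 2 each. The strongest Mef2c member was intronic, called in d4 replicate 1 with a fold enrichment of 7.64, and held a GATA motif. In d4 replicate 2 the strongest of the list was intronic, 7.37 kb from the start of Smarcd3, a cardiac chromatin remodelling subunit, with 8.30. Endoderm genes had one at 7 of 17 (41.2%, and 9 of 19 or 47.4%), led by Cubn, the endocytic receptor cubilin, with 3 members beside 4 gained regions. Mesenchymal and matrix genes had one at 5 of 16 (31.3%, and 15 of 21 or 71.4%), including Twist2 with 2 members. Of the distal regions at blood, cardiac, endoderm and mesenchymal genes, 23.8%, 27.7%, 23.8% and 17.6% were members, against 22.0% of all distal regions. With protein-coding genes these were 31.5%, 27.1%, 26.0% and 26.1%.

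Pluripotency genes had a member at 3 of 20 list genes (15%), and at 11 of 26 (42.3%) with protein-coding genes. Neural genes had one at 4 of 20 (20%), and at 7 of 24 (29.2%) with protein-coding genes. Over all genes with a distal region these shares were 31.1% and 38.8%. Of the distal regions at pluripotency genes 7.89% were members, and at neural genes 8.51%, against 22.0% of all distal regions. With protein-coding genes these were 14.8% and 12.8%. By the nearest gene, the members at genes listed here under pluripotency were 1 each at Sall4, Zfp42 and Lef1, a TCF/LEF factor gene. Primitive streak and early mesoderm genes had a member at 3 of 12 (25%), against 31.1% of all genes with a distal region. With protein-coding genes it was 7 of 16 (43.8%), against 38.8%. By the nearest gene of any type, Snai1 had 2 and Nodal and Mesp1 had 1 each, all called in d4 replicate 1. Of the 20 distal regions at primitive streak and early mesoderm genes, 20% were members, against 22.0% of all distal regions. With protein-coding genes it was 17.0% of 47.

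GATA, ETS, AP-1 and TEAD factor genes had a member at 7 of 24 (29.2%), against 31.1% of all genes with a distal region. With protein-coding genes it was 15 of 30 (50%), against 38.8%. Of their 60 distal regions, 15.0% were members, against 22.0% of all, or 20.2% of 119 with protein-coding genes. Tead1 had 3, all in d4 replicate 1. Zfpm2, a GATA cofactor, had 1, and the strongest of the list in d4 replicate 1 lay 13.5 kb from Fli1, an ETS factor, with a fold enrichment of 6.57 and a GATA motif.

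Among protein-coding genes, Pde4d, a cyclic AMP phosphodiesterase, had the most members. Of its 8, 7 were called in d4 replicate 1 and 1 in d4 replicate 2, all intronic, with fold enrichments of 5.27 to 10.7, and 1 held a GATA motif. Pde4d also had 2 gained regions, 4 called in both d2 libraries only and 3 single d2 regions among 25 distal regions. Palld, which encodes the actin-binding protein palladin, had 7 members, all intronic, with fold enrichments of 5.20 to 7.99 and no GATA motif. Nckap5 had 6. Trabd2b, a protease of Wnt proteins, Macf1, a linker of microtubules and actin, and Mllt3, a reader of acetylated histones, had 5 each. Trim32, Ltbp1, Map4k3 and Tek had 4 each, as had 14 protein-coding genes in all, and these were taken in order of their highest fold enrichment. All 4 of Ltbp1, a binding protein of latent TGF-beta, were called in d4 replicate 2, and all 4 of Trim32 in d4 replicate 1. The Trim32 members lay 49.6 to 199 kb from its start.

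**Figure D5:**
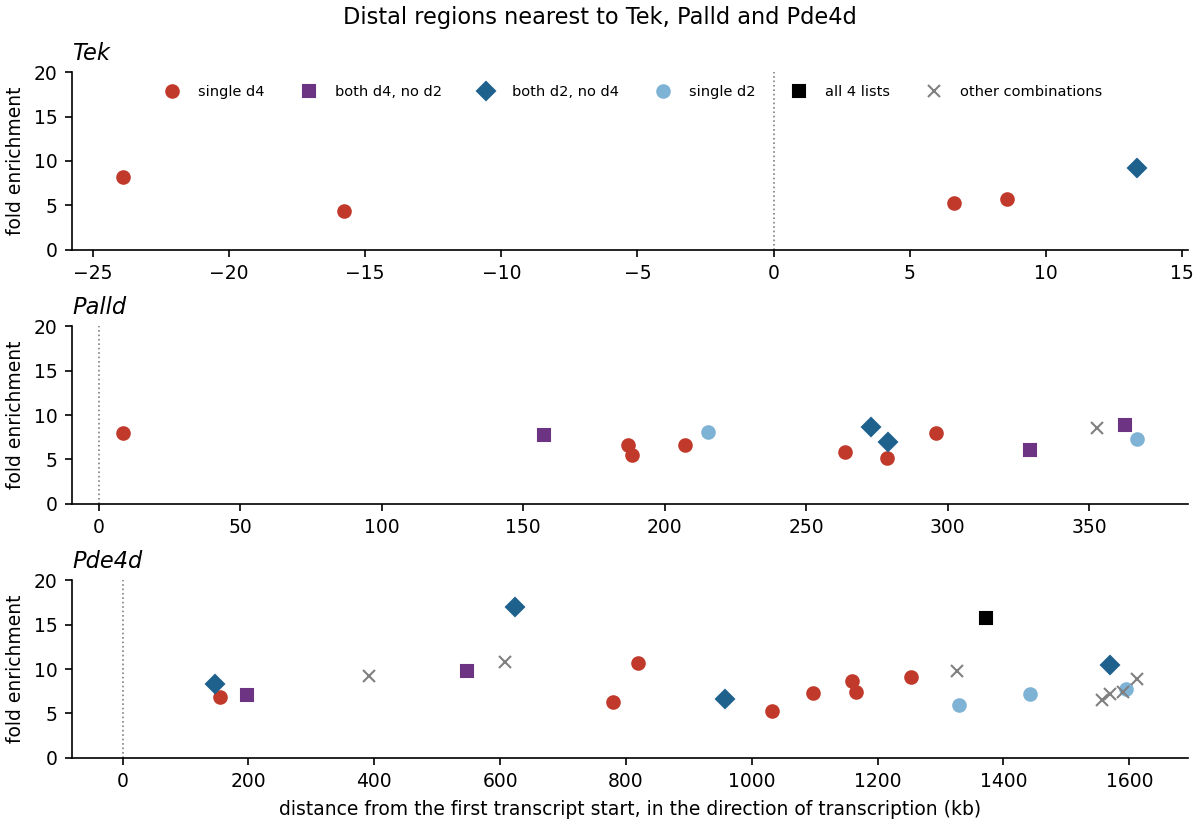
Distal regions nearest to Tek, Palld and Pde4d by distance from the gene's first transcript start in the direction of transcription (kb, with midpoints as points), and the highest fold enrichment over the 4 libraries. Single d4 regions lie between -23.9 kb and 8.59 kb at Tek and are spread over the introns of Palld and Pde4d.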

How the data were processed

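ATAC-seq libraries of ES-E14TG2a cells (2 at d2, 2 at d4) were grouped by their labels. The authors used cutadapt for trimming, Bowtie2 for alignment to mm10 and MACS2 for calling peaks in each library separately (submitters' processing notes and the study's methods), leaving out duplicates, reads of several positions or the mitochondrion, and blacklisted regions. In the deposited lists, each peak has a fold enrichment ratio at the summit, −log10 p and −log10 q values, a score (not used) and a summit offset. The lowest −log10 q was 3.00 to 3.02 per library.

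Summit pileups and background coverage were solved from the deposited fold and −log10 p values, and gave whole pileups for 100% of peaks (within 0.01 in −log10 p). Pileup gives relative depth. Read totals were not used here, and the stated peak calling does not settle whether reads or fragments were piled up.

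Peaks were merged and annotated with GENCODE vM21, whose assembly (GRCm38) is that of mm10; 0 peaks lay past a chromosome end. A region was classed by any overlap in the order 5′ UTR, 3′ UTR, exon, intron, intergenic. Coordinates are 1-based. The 20 motifs were searched on both strands of the window 100 bp to each side of the summit of the strongest peak. Each was a fixed letter pattern with no mismatch allowed, so the shares leave out near matches. CAGGTG can overlap the T-box motif. Shares carry 95% Wilson and differences of shares 95% Newcombe intervals; GC and flank differences carry normal intervals. The steps were tested on simulated data. With 2 libraries against 2 no p-value is given between time points. Regions and genes were named by rule: the strongest members of each library and list, the members of 6 endothelial genes, up to 3 genes per list and the 10 protein-coding genes with the most members. Not every region this rule selects is described. The members, lists and motifs were chosen with earlier results of these data known. The result of 1 gene list is not reported here.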

Additional observations from a re-analysis of the deposited data

How the results depend on the processing

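The excess of GATA motifs in single d4 over single d2 regions kept its direction, with an interval above 0, under 32 of 32 alternatives (7.57 to 29.7 points), and that over the flanks under 14 of 14 (6.84 to 18.9 points). The deficit against gained regions kept its direction in 24 of 24, but its interval held 0 in 4 of the pileup bins, which were chosen after seeing the data: -2.40 points at 7 to 8 and -3.83 at 13 to 15 in d4 replicate 1, and -2.98 at 16 to 20 and -7.81 at 21 or more in d4 replicate 2. It was -14.8 points when the whole region was searched, where the searched lengths differed (median 158 bp in members and 282 bp in gained regions). The cause was not tested. The number of single d4 regions was 2761 with the top 15000 peaks of each library and 4367 to 6611 in the other 8 settings. Leaving out each library in turn gave 5315 to 6478. With 1 d4 library left, every region without a d2 peak is single, and no gained class exists. The GC difference from gained regions was -0.27 points at 50% reciprocal overlap. The intronic share stayed between 45.5% and 47.5%. Genes with a member numbered 69 over all lists, the unreported list included, and 129 with the nearest protein-coding gene. Of the other 19 motifs, 15 to 16 differed from single d2 regions. With the replicate number as a block, a comparison also added after seeing the data, the GATA difference from single d2 regions was 12.1 points within replicate number 1 and 11.9 within number 2. The numbers are not stated to mark shared cultures. Weak peaks rest on few reads or fragments, and a region without a call is not shown to be closed.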
